A study of Rattus norvegicus with 6 samples.

Results

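Transient receptor potential (TRP) channels are cation channels, and 9 of them that are known from sensory neurons are described here in the dorsal root ganglion (DRG): Trpv1, Trpv2, Trpv4, Trpa1, Trpm2, Trpm3, Trpm7, Trpm8 and Trpc6. The members were chosen by name, and all 9 were found among the 43350 gene rows of the deposited table. Where a symbol was carried by several rows, protein-coding rows had precedence, and among them the one with the most reads was used. RNA was sequenced from the lumbar DRG on the operated side of male Sprague-Dawley rats, taken 11 days after surgery. In 3 rats the left sciatic nerve had been constricted with loose ligatures (chronic constriction injury, CCI), a model of neuropathic pain, and in 3 sham rats the nerve was exposed and not ligated. Each library came from 1 rat by the study's methods, although the labels speak of a pooled sample and give no treatment for the sham rats. By the study's methods the rats of both groups were acquired as young animals and group-housed. Constriction leaves part of the nerve's fibres intact, so a ganglion holds injured and uninjured neurons together.

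TRP channels open to heat, cold, irritant chemicals, lipids or stretch and let sodium and calcium into the cell, which depolarizes the ending of a sensory neuron. Trpv1, the capsaicin receptor, and Trpa1, the receptor of mustard oil and other electrophiles, are found in small peptidergic nociceptors, and Trpm8 is the menthol and cold receptor of a separate group of small neurons. The others are less restricted: Trpm3 takes part in heat sensing, Trpv2 is found in medium and large neurons and in macrophages, Trpv4 responds to osmotic and mechanical stimuli, Trpm2 to oxidative stress, Trpm7 is a ubiquitous channel joined to a kinase, and Trpc6 is opened by diacylglycerol.

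The 6 libraries held between 75423546 and 87615743 counts, so that 3 counts, taken as the detection floor, corresponded to 0.0342 to 0.0394 CPM, the count scaled to the library total. Pan-neuronal genes (Rbfox3, Uchl1, Snap25 and others) summed to between 4566 and 5186 CPM and the nociceptor markers (Scn10a, Calca, P2rx3 and others) to between 3741 and 4396 CPM over the 6 libraries, with no order between the groups and 0 of 10 genes called in each list. Replicate libraries were not copies of each other: the chi-square statistic of a pair of the same group, divided by its degrees of freedom, was 57.0 to 83.8. Sham 1 stood apart in skeletal muscle markers, which summed to 401 CPM against 9.45 to 51.9 CPM in the other 5 libraries, and the members' log2 fold changes without it are given beside their values.

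For a pair of TRPV genes whose group means differed in opposite directions, the 250 bases before the start of the gene are shown, from RefSeq on the assembly GRCr8. Windows were found for 8 of the 9 members, and none for Trpa1. The capitals mark the core of the site bound by RUNX factors, of which Runx1 is known for its role in nociceptor identity, searched as TGTGGT on both strands (ACCACA on the opposite one). The Trpv1 window lies at chr10:58349686-58349935 and the Trpv2 window at chr10:47771973-47772222, both on the plus strand of the same chromosome.
Trpv1: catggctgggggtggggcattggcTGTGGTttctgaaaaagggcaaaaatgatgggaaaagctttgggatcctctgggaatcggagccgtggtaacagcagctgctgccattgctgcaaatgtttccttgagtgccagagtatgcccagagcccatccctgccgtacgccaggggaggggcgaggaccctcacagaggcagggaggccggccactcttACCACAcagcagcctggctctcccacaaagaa
Trpv2: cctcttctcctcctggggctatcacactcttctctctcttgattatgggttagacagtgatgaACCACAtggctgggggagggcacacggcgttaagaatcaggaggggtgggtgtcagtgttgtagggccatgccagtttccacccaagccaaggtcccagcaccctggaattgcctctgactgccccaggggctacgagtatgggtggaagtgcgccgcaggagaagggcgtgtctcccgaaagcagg
The Trpv1 window held 2 matches and the Trpv2 window 1, and 14.5% of the 33469 rat windows of this length held at least 1. A match to these letters is not evidence of binding. Of the other members, the core was found in 1 of the 2 Trpm3 windows. The AP-1 site TGANTCA was found in no window of a member, and in 6.34% of all windows. The GC box GGGCGG was found in the windows of Trpv4 (2 matches), Trpm2 (1 match) and Trpm7 (1 match), and in 30.5% of all windows.

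The Trpm3 row also carries the name of the microRNA gene Mir204, which lies inside this channel gene, so that reads of the channel transcript and of the microRNA precursor were counted in 1 row. The mature microRNA, which lies on GRCr8 at chr1:229743493-229743514 on the plus strand, is shown with its seed (bases 2 to 8) in capitals.
rno-miR-204-5p: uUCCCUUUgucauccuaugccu

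Levels between genes are compared in FPKM, the count per kilobase of row length, scaled to the library total. The order of the mean levels was the same in the CCI and sham groups: Trpa1 was highest, followed by Trpv2, Trpv1, Trpm7, Trpm8, Trpm2, Trpm3, Trpc6 and Trpv4. The mean level in the sham group ran from 21.9 ± 1.53 FPKM (SD, n = 3) for Trpa1 to 0.198 ± 0.0314 FPKM for Trpv4. In the sham group the ranges of Trpv2 (15.1 to 17.6 FPKM) and Trpv1 (15.5 to 16.5 FPKM) overlapped, so those neighbours were not apart beyond their spread. In the CCI group Trpv2 (18.8 to 19.4 FPKM) lay above Trpv1 (13.7 to 14.3 FPKM) in every library, and it was the ranges of Trpm7 (11.1 to 12.7 FPKM) and Trpm8 (9.77 to 13.1 FPKM) that overlapped. All other neighbours were apart in both groups. In counts the order differed, since Trpm3, with a row of 39635 bases, had the most reads (13607 to 16075 per library) and only the seventh level per length. The assembled rows of Trpv1 (8830 bases, with a retained intron) and Trpm8 (11944) were also longer than those of Trpa1 (3707) and Trpv2 (3474). In CPM the sham means were 141 for Trpv1, 129 for Trpm8, 81.7 for Trpa1 and 56.8 for Trpv2. The order per length therefore depends on the assembled row lengths.

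**Figure D1:**
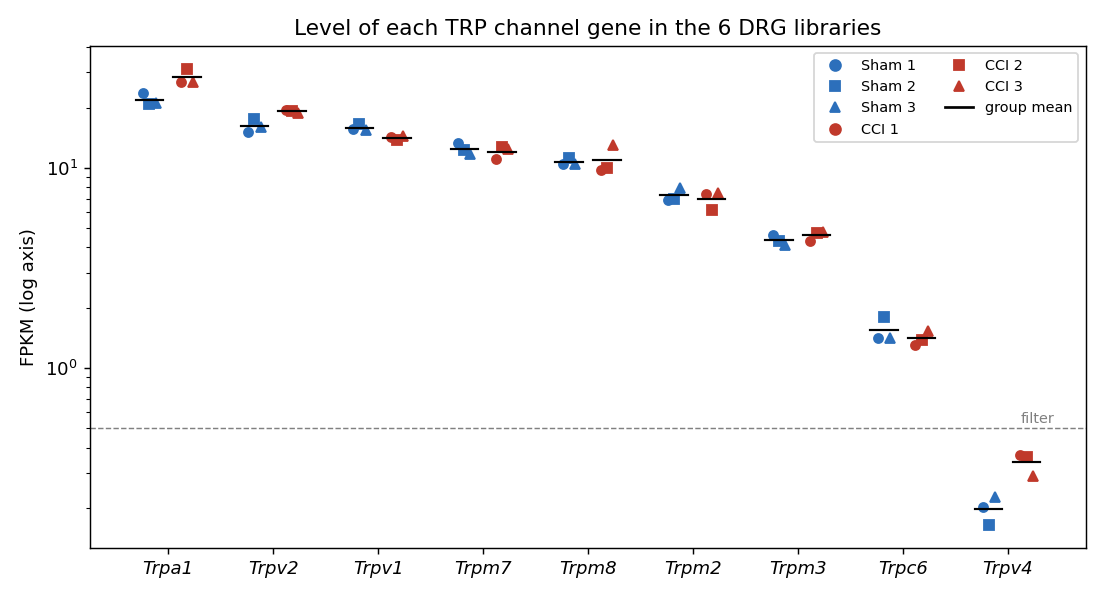
Level of each of the 9 TRP channel genes in FPKM (log axis) in the 3 sham libraries (blue) and the 3 CCI libraries (red), with the group mean as a bar and the filter of a mean of 0.5 FPKM as a dashed line. Trpa1, Trpv2 and Trpv4 were higher in every CCI library than in every sham library, Trpv1 was lower, and Trpv4 lies under the filter.

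The comparison of CCI with sham asks whether nerve injury altered the RNA of these channels in the ganglion. The limits of the study were used for a call: a log2 fold change of 0.58 or more in either direction, together with an unadjusted p below 0.05 from edgeR's quasi-likelihood test. By that rule 2.57% of the 26663 rows tested were called higher in the CCI group and 1.26% lower, or 3.83% in all. Of the 8 members tested, 0 were called in either direction, and Trpv4 was under the filter on low levels. The 95% intervals of the 8 log2 fold changes lay between -0.52 and 0.56, so each of them, taken gene by gene, was within the limit of 0.58. Their median log2 fold change was -0.02, beside 0.01 over all rows tested. The unadjusted p was under 0.05 for 3 of the 8 members, Trpa1, Trpv1 and Trpv2, with Trpa1 and Trpv2 higher (beside 5.57% of all rows tested) and Trpv1 lower (5.18%, or 10.7% in both directions), and 0 had a Benjamini-Hochberg adjusted p under 0.05, beside 0.0938% of all rows (25). The smallest adjusted p of a member was 0.222. Libraries of the CCI and sham groups did not overlap in CPM for 4 of the 9 members. Among the 8 tested they were 2 that were higher in the CCI group, beside 8.63% of the rows tested, and 1 that was lower, beside 8.7%, or 3 beside 17.3% in both directions, and Trpv4 was the fourth.

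**Figure D2:**
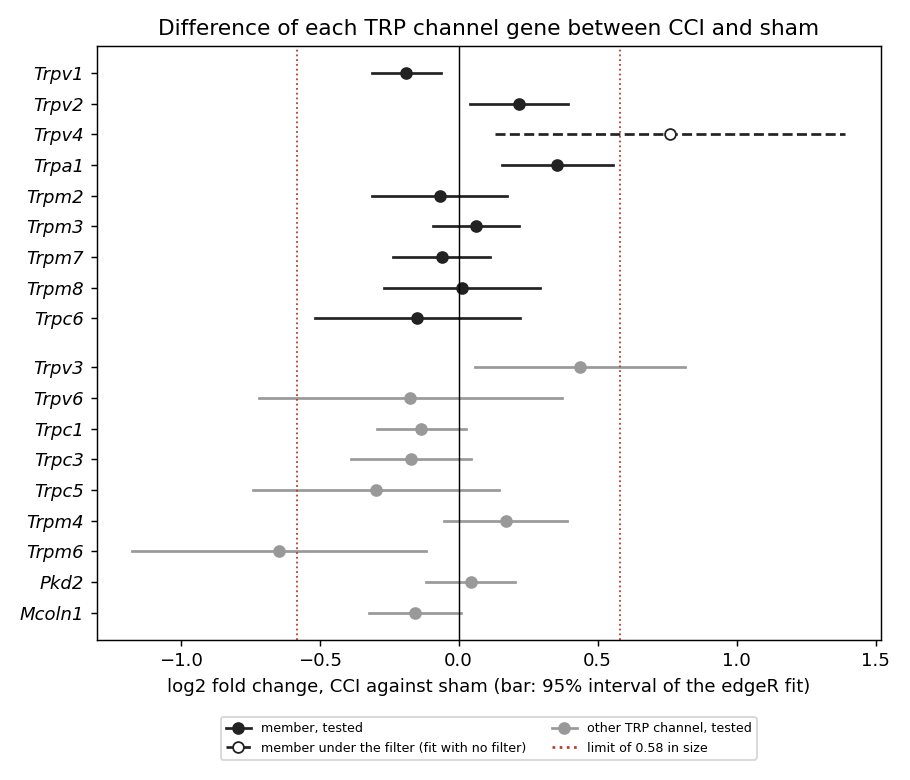
Log2 fold change of CCI against sham for the members (black) and for the other TRP channel genes tested (grey), with the 95% interval of the edgeR fit as a bar and the limits of 0.58 in size as dotted lines. The intervals of the 8 tested members stay inside the limits, that of Trpa1 (0.15 to 0.56) reaches nearest to one, and the open circle is Trpv4 in a fit with no filter.

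Trpv1 is the heat- and capsaicin-gated channel of nociceptors, and its row covers chr10:59799123-59827786 on the plus strand of the genome the study calls V101. It had 126, 121 and 126 CPM in CCI 1, 2 and 3 and 138, 147 and 139 CPM in sham 1, 2 and 3. Every CCI library was below every sham library, and the 3 CCI values were close together. The log2 fold change was -0.19 (SE 0.05, 95% interval -0.31 to -0.06), or 0.878 times the sham level, with a p of 0.00999 by edgeR and an adjusted p of 0.281. The interval of the fold ran from 0.805 to 0.958 times the sham level. Without sham 1 the log2 fold change was -0.21. A row without a symbol on the opposite strand overlaps the end of the gene at a mean of 0.214 FPKM.

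Trpa1 is the irritant receptor that many Trpv1-positive nociceptors carry too, and its row covers chr5:3783247-3836485. It had 99.6, 115 and 98.7 CPM in CCI 1, 2 and 3 and 87.5, 78.2 and 79.4 CPM in sham 1, 2 and 3. The groups did not overlap, CCI 2 was the highest library and the nearest libraries of the 2 groups were CCI 3 and sham 1. The log2 fold change was 0.35 (SE 0.08, 95% interval 0.15 to 0.56), or 1.28 times the sham level, with a p of 0.00444 by edgeR. The adjusted p was 0.222 by edgeR, 0.0278 by DESeq2, and between 0.0278 and 0.495 over the 17 alternatives tried. Without sham 1 the log2 fold change was 0.41. No row overlaps Trpa1.

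Trpv2, a heat- and stretch-sensitive relative of Trpv1, lies on the same chromosome at chr10:48896823-48925030. It had 67.5, 66.1 and 64.9 CPM in CCI 1, 2 and 3 and 52.3, 61.7 and 56.6 CPM in sham 1, 2 and 3. The CCI values were close together and above the sham values, which spread more widely. The log2 fold change was 0.22 (SE 0.07, 95% interval 0.04 to 0.40), or 1.16 times the sham level, with a p of 0.0221 and an adjusted p of 0.362 by edgeR. Without CCI 1, CCI 2, sham 1 or sham 3 the edgeR p was between 0.0517 and 0.0580, and without sham 1 the log2 fold change was 0.16. Macrophages are known to express Trpv2, and the summed level of 12 macrophage markers was 196, 168 and 132 CPM in CCI 1, 2 and 3 and 96.2, 96.8 and 124 CPM in sham 1, 2 and 3. The sum was above the sham range in each CCI library. Of the 12 markers 7 were called higher (Cd68, Csf1r, Cx3cr1, C1qa, C1qb, C1qc and Tyrobp) and 0 lower, beside 2.57% and 1.26% of all rows tested. The study had already reported Cd68, Csf1r, Cx3cr1 and Tyrobp as higher from the same libraries. The other 5 overlapped between the groups, among them Cd163 (log2 fold change -0.0033). Of all rows tested, 8.63% were higher in every CCI library than in any sham library. The part of macrophages in the Trpv2 difference was not tested.

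Trpv4, the osmotically and mechanically gated member, was the scarcest of the 9 and its row covers chr12:47698947-47737902. The CCI libraries held 106, 103 and 77 of its reads in order of their number and the sham libraries 63, 47 and 67, or 0.289 to 0.368 FPKM against 0.165 to 0.227 FPKM. The groups did not overlap, with CCI 3 and sham 3 nearest to each other. Its mean was under the filter of 0.5 FPKM, so it had no test in the comparison above. In the fit with no filter over 35757 rows, the log2 fold change was 0.76 (SE 0.27, 95% interval 0.13 to 1.39), with a p of 0.0247 and an adjusted p of 0.459 by edgeR, which is past the study's limits, as were 2.54% of the rows in the higher direction in that fit. That call was lost when 1 library was left out, with an unadjusted edgeR p of 0.0703 without CCI 1, 0.0695 without CCI 2, 0.0520 without sham 1 and 0.0701 without sham 2, and with log2 fold changes between 0.65 and 0.77. The macrophage sums given above were also higher in the CCI libraries, and their part was not tested. The 7 T cell markers summed to 19.9, 19.8 and 14.8 CPM in CCI 1, 2 and 3 and 11.6, 11.4 and 11.8 CPM in sham 1, 2 and 3. Only 1 of them passed the filter, and it was called higher (log2 fold change 0.68), beside 2.57% of all rows tested. That call is of 1 gene and does not describe the list. Cd3d and Cd3g had at most 0.186 CPM in any library. The part of T cells was not tested.

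Trpm8, the cold and menthol receptor, had 117, 119 and 155 CPM in CCI 1, 2 and 3 and 124, 136 and 127 CPM in sham 1, 2 and 3. CCI 3 was the highest of the 6 libraries and the other CCI libraries the lowest, so the groups overlapped and the CCI group spread more (130 ± 21.3 CPM) than the sham group (129 ± 6.04 CPM). The log2 fold change was 0.01 (SE 0.12, 95% interval -0.27 to 0.29) with an adjusted p of 0.983 by edgeR, and it was -0.13 without CCI 3 and -0.01 without sham 1. The row covers chr9:95398237-95484514, and no other row overlaps it.

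Trpm3, a heat-activated channel that is also opened by the steroid pregnenolone sulfate, had 171, 186 and 187 CPM in CCI 1, 2 and 3 and 183, 172 and 165 CPM in sham 1, 2 and 3. The groups overlapped, and the log2 fold change was 0.06 (SE 0.06, 95% interval -0.09 to 0.22) with an adjusted p of 0.805 by edgeR. Without sham 1 it was 0.11. Its row covers chr1:240085086-240764023 and 11 other rows overlap it, 8 of them on the opposite strand. Of these, 7 carry the symbol Trpm3 too, and 0 of the 6 that were tested were called. The assembly split this locus into pieces of uneven behaviour. The piece at chr1:240432526-240440200 had 442 counts in CCI 1 and 12 to 52 in the other libraries. The piece at chr1:240467345-240472504, on the opposite strand, had 1059 counts in CCI 2 and 170 to 475 in the others. Whether strand was used in counting is not stated, so reads of a gene and its opposite-strand neighbours cannot be told apart.

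Trpm2, the channel opened by ADP-ribose under oxidative stress, had 47.7, 39.7 and 47.8 CPM in CCI 1, 2 and 3 and 44.6, 45.4 and 51.8 CPM in sham 1, 2 and 3. The lowest library was CCI 2 and the highest sham 3, the groups overlapped, and the log2 fold change was -0.07 (SE 0.10, 95% interval -0.31 to 0.17, edgeR adjusted p = 0.878). It was 0.02 without CCI 2, 0.0036 without sham 3 and -0.11 without sham 1. The row (chr20:11436267-11483283) is joined with a small nucleolar RNA gene.

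Trpm7, the channel-kinase that carries magnesium and zinc, had 86.6, 98.6 and 95.5 CPM in CCI 1, 2 and 3 and 104, 96.2 and 92.9 CPM in sham 1, 2 and 3. The groups overlapped, with CCI 1 lowest and sham 1 highest, and the log2 fold change was -0.06 (SE 0.07, 95% interval -0.23 to 0.11, edgeR adjusted p = 0.844). Without sham 1 it was -0.02. Trpm7 lies at chr3:119258274-119347100 on the minus strand. Trpc6, the diacylglycerol-gated member, had 4.94, 5.20 and 5.73 CPM in CCI 1, 2 and 3 and 5.30, 6.86 and 5.43 CPM in sham 1, 2 and 3. Sham 2 was the highest and the groups overlapped, with a log2 fold change of -0.15 (SE 0.15, 95% interval -0.52 to 0.22, edgeR adjusted p = 0.811), the widest interval of the 8 tested members. Without sham 1 it was -0.22. Its row covers chr8:6811543-6917535.

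Trpa1 and Trpv2 had higher means in the CCI group and Trpv1 a lower one, so their ratios within a library are given too. The ratio of Trpa1 to Trpv1 in FPKM was 1.88, 2.28 and 1.87 in CCI 1, 2 and 3 and 1.51, 1.26 and 1.36 in sham 1, 2 and 3, with means of 2.01 ± 0.233 and 1.38 ± 0.125 (SD, n = 3). The ratio of Trpv2 to Trpv1 was 1.36, 1.39 and 1.31 in the CCI libraries and 0.964, 1.06 and 1.04 in the sham libraries. These 2 ratios were higher in every CCI library than in any sham library. That follows from the levels of the 3 genes, which already lay apart in these directions, and is no further observation. The ratio of Trpm8 to Trpv1 was 0.684, 0.731 and 0.911 in the CCI libraries and 0.667 to 0.681 in the sham libraries, a far smaller gap. The ratio of Trpa1 to Trpm8 was 2.75, 3.12 and 2.06 in the CCI libraries and 2.27, 1.86 and 2.01 in the sham libraries, and the groups overlapped. These ratios were chosen after the values of the genes had been seen, so they are given as a description with no test. A ratio shows unequal levels within a library and not which of its genes differed. In whole ganglia, fewer cells of a type and less RNA per cell cannot be told apart.

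**Figure D3:**
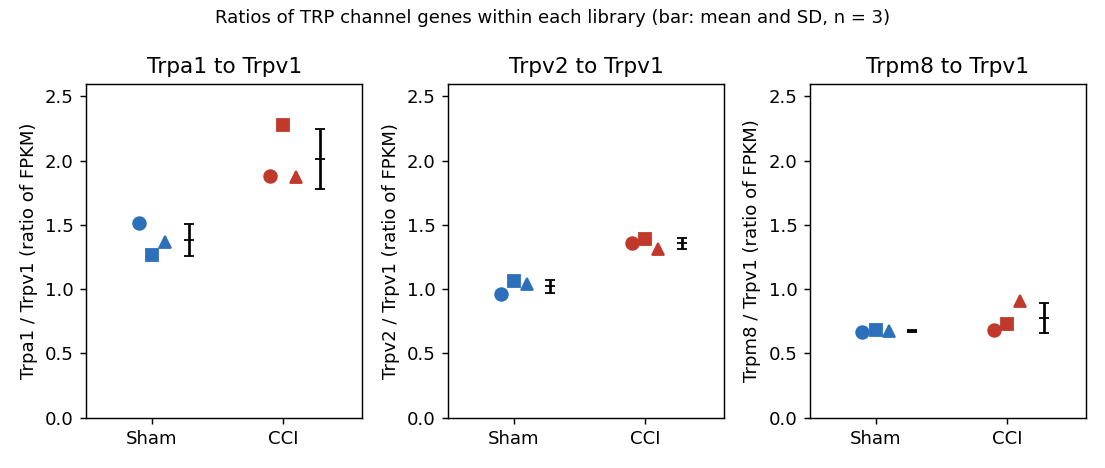
Ratios of the FPKM values of 2 TRP channel genes within each library, for sham (blue) and CCI (red), with the mean and SD of 3 libraries as a bar beside the points. The Trpa1 to Trpv1 ratio is 1.87 to 2.28 in the CCI libraries and 1.26 to 1.51 in the sham libraries, and the axis starts at 0.

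Summed over the 9 members, TRP channel RNA was 721, 752 and 781 CPM in CCI 1, 2 and 3 and 739, 745 and 718 CPM in sham 1, 2 and 3, so the groups overlapped. Injury-induced genes, 9 in all, were Atf3, Gal, Npy, Sprr1a, Gap43, Vip, Jun, Sox11 and Csrp3. They summed to 425 to 735 CPM in the CCI group and 175 to 188 CPM in the sham group. Of these 9 genes 9 were called higher, beside 2.57% of all rows tested. The study had reported these genes as higher from the same libraries, so the count follows from the choice of the list. Markers of large neurons summed to 3594 to 4069 CPM in the CCI group and 4990 to 5476 CPM in the sham group. Of the 8 large neuron markers 1 (Pvalb) was called lower, beside 1.26% of all rows tested. In 7 of them every CCI library was below every sham library, beside 8.7% of all rows. The median log2 fold change of the 8 was -0.26. Nociceptor markers had a median log2 fold change of -0.14 with sums that overlapped (4096 to 4239 against 3741 to 4396 CPM). Of these 10 markers, 2 were higher in every CCI library than in any sham library (P2rx3, 0.16, and Prph, 0.25). Another 3 were lower in this way (Scn11a, -0.15, Calca, -0.15, and Mrgprd, -0.20). Over all rows tested these shares were 8.63% and 8.7%. The part of these cell types in the levels of Trpv1, Trpv2 and Trpa1 was not tested. With libraries scaled by the 10 pan-neuronal genes, the log2 fold change of Trpv1 was -0.16 (SE 0.07) with an unadjusted edgeR p of 0.0579, those of Trpa1 and Trpv2 were 0.37 and 0.25, and the p of both stayed under 0.05.

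**Figure D4:**
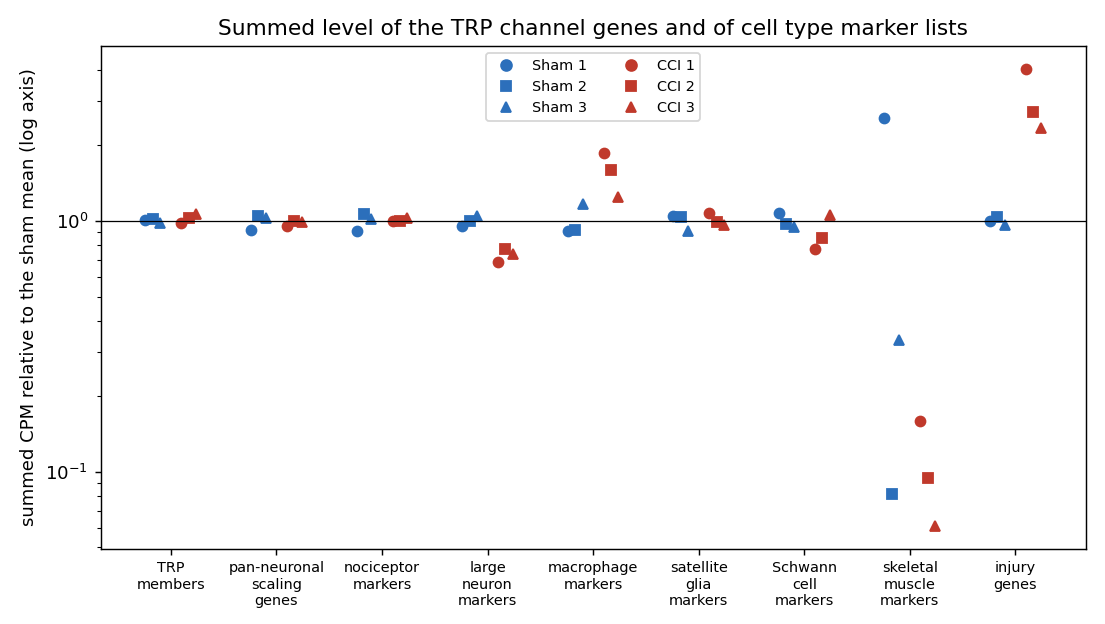
Summed CPM of the 9 TRP channel genes, of cell type marker lists and of injury genes in each library, relative to the mean of the sham libraries (log axis). The TRP sums lie close to the line at 1 in all 6 libraries, the macrophage and injury sums are higher in the CCI libraries, the large neuron sums are lower, and sham 1 is far above the other libraries in skeletal muscle markers.

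Of the 19 other genes of the TRP family, 18 were in the table and 9 passed the filter. Of these 9, 0 were called higher and 1 was called lower, beside 2.57% and 1.26% of all rows tested. Their median log2 fold change was -0.16. Trpm6, a magnesium channel and the closest relative of Trpm7, had 0.523, 0.770 and 0.925 FPKM in CCI 1, 2 and 3 and 1.22, 1.02 and 1.19 FPKM in sham 1, 2 and 3. It fell by 0.65 on the log2 scale (SE 0.22, 95% interval -1.17 to -0.12, edgeR adjusted p = 0.369), with an unadjusted p of 0.0236, and its libraries did not overlap. Trpv3, a warm-sensing channel best known from keratinocytes, had 2.62 ± 0.292 FPKM in the CCI group and 1.91 ± 0.311 FPKM in the sham group, with a log2 fold change of 0.44 (SE 0.16) that was not called, although its unadjusted edgeR p was 0.0300. The next by p were Mcoln1, a lysosomal channel in a row joined with Pnpla6 (-0.16, edgeR adjusted p = 0.492), and Trpc1 (-0.13, edgeR adjusted p = 0.556). Trpv5, Trpc4, Trpc7, Trpm1, Trpm5, Pkd2l1, Pkd2l2, Mcoln2 and Mcoln3 were under the filter.

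Genes whose products bind TRP channels or set their sensitivity were also examined, among them kinases that phosphorylate Trpv1, phospholipases that consume the phosphoinositide PIP2, and adaptors. Of 23 such genes 22 were tested and 0 were called in either direction, beside 3.83% of all rows tested. The median log2 fold change was -0.05. Those with the smallest p were Prkaca, the catalytic subunit of protein kinase A (-0.24, SE 0.06, edgeR adjusted p = 0.238), and Prkce, protein kinase C epsilon (-0.25, SE 0.06, edgeR adjusted p = 0.240). Both had lower levels in every CCI library than in any sham library. Gabarap, which binds Trpv1 and shares a row with Ctdnep1, had a log2 fold change of 0.15 (edgeR adjusted p = 0.360), and Cdk5, a kinase of Trpv1, one of -0.21 (edgeR adjusted p = 0.397).

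By the table's own annotation, 110 rows belong to the KEGG pathway of TRP channel regulation by inflammatory mediators, 5 of them members. This list was looked at after the data had been seen. Of its 83 rows tested 3 were called higher and 1 lower, beside 2.57% and 1.26% of all rows tested. By edgeR 20 had an unadjusted p under 0.05, beside 10.7% of all rows, and 0 an adjusted p under 0.05. These 4 genes were named after their values were seen. Bdkrb2, the bradykinin B2 receptor whose signalling sensitizes Trpv1, had 4.92, 4.61 and 3.51 FPKM in CCI 1, 2 and 3 and 2.57, 2.77 and 2.09 FPKM in sham 1, 2 and 3, a rise of 0.80 on the log2 scale (SE 0.16, edgeR adjusted p = 0.171). Il1r1, the interleukin-1 receptor, rose by 1.29 (SE 0.35) and was nearest to the sham range in CCI 3 (2.79 FPKM, against 2.62 FPKM in sham 1). Prkcb, a protein kinase C, rose by 1.06 (SE 0.32), with 19.5 FPKM in CCI 2 and 8.12 and 9.71 FPKM in the other CCI libraries. Pla2g4e, a phospholipase A2, fell by 0.82 on the log2 scale (SE 0.22, edgeR adjusted p = 0.263). The pathway median was 0.03.

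The protein-coding genes whose log2 CPM most resembled that of Trpv1 over the 6 libraries were Ash2l (Pearson r = 0.995), Impa2 (r = 0.989) and Cpne4 (r = 0.987). The points share their libraries and the difference between the groups, and with 6 points 60 of the 13595 rows compared (0.441%) had an r over 0.95.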

How the data were processed

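The authors mapped clean reads of ribosomal RNA-depleted, paired-end libraries with HISAT2 (2.0 in the submitters' processing notes) to the rat genome they call V101 and assembled transcripts with StringTie 1.3.0. The deposited table holds, for each assembled row, whole-number read counts per sample without normalization and FPKM values, both made by the authors. The library kit marks strand, and strand use in counting is not given in the sources used here. The labels' surgery set the 2 groups of 3 rats, and all the numeric sample columns were used. Between 5.37% and 5.72% of a library's counts fell in rows that carry no symbol.

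The members and gene lists were chosen with earlier results of these data known. The filter on low values kept the 26663 rows (13712 protein-coding) whose mean FPKM reached 0.5. They were tested with edgeR 4.0.16's quasi-likelihood test, TMM factors (0.988 to 1.01) and a prior with trend whose degrees of freedom were 2.52, and p-values were adjusted by Benjamini-Hochberg over all of them. The study's limits (unadjusted p below 0.05, log2 fold change of 0.58 or more either way) gave the calls. The scripts were tested on simulated data. All 9 members are named. Of the other TRP channels and of the partners, called genes and the smallest p up to 4 a list are named, and likeness is given for Trpv1 and any member called, as the 3 most correlated protein-coding rows. Values after ± are SDs. The p-values rest on the spread between libraries of 1 rat each, in which rat, dissection and library preparation are not separated. The floor of 3 counts covers counting error only.

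The alternatives were other size factors (RLE), scaling by pan-neuronal genes, no filter or a mean FPKM of at least 1, DESeq2 1.42.0, limma 3.58.1 on log2(FPKM + 0.1) or log2(FPKM + 1), a prior without trend, protein-coding rows alone, a replicate block, summed rows per symbol, and leaving out each library. Promoter windows and the microRNA are from RefSeq (GRCr8), whose coordinates differ from those of the deposited table. R 4.3.3 and Python 3.11.15 were used.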

Additional observations from a re-analysis of the deposited data

How the results depend on the processing

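No member was called under the alternatives tried, except that with no filter 1 member, Trpv4, was called higher, as were 2.54% of the 35757 rows in that fit. For Trpv4 with no filter, alternatives chosen after seeing the data gave log2 fold changes of 0.56 to 0.87, and the call was kept in 4 of 10. Besides the omissions named above it was lost with the replicate block (an unadjusted edgeR p of 0.0576) and with limma on log2(FPKM + 0.1) (0.0787). Trpv1 (-0.21 to -0.16), Trpv2 (0.16 to 0.28), Trpa1 (0.28 to 0.41), Trpm3 (0.02 to 0.11), Trpm7 (-0.10 to -0.01) and Trpc6 (-0.22 to -0.02) kept their sign in 17 of 17 alternatives. Trpm2 reversed to 0.0164 without CCI 2 and to 0.0036 without sham 3 (-0.113 to 0.0164 over all alternatives), and Trpm8 to -0.130 without CCI 3 and to -0.0142 without sham 1 (-0.130 to 0.0851), and the cause was not tested. The median of the tested members was -0.09 to 0.04 when libraries were left out. Same-numbered CCI and sham libraries did not deviate together (correlations of -0.0106, -0.0218 and -0.0547). With 3 libraries a group this cannot show whether the rats were handled in pairs. With the replicate block 0 members were called, and the count of all rows with an adjusted p under 0.05 was 0, beside 25 without it. That count was 751 with DESeq2, 14 with a prior without trend, 76 with protein-coding rows alone (where 353 rows were called higher and 115 lower), 61 without CCI 1, 6 without CCI 2, 38 without CCI 3 and 8 without sham 1. With limma on log2(FPKM + 1), 410 rows were called higher and 161 lower, against 686 and 336. With 3 rats a group and 47 to 106 counts of Trpv4 per library, its log2 fold change had an SE of 0.27.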
